A study of Mus musculus with 6 samples.

Results

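The genes described here are 10 markers of the fibroblasts and progenitor cells of the adventitia, the outer layer of the arterial wall, namely *Pi16*, *Dpt*, *Ly6a*, *Cd34*, *Gli1*, *Scara5*, *Clec3b*, *Gsn*, *Serpinf1* and *Dpep1*. They were picked by symbol from the 55341 genes of the deposited read-count table, and all 10 were found and all 10 had enough reads to be tested, among 16017 genes tested in all. RNA came from the aortic arch and thoracic aorta of 3 miRNA-26b-/- and 3 miRNA-26b+/+ mice of 8 weeks of age on a chow diet, labelled as strain C57BL/6NCrl, with 1 library per mouse. The miRNA-26b-/- libraries are M2626, M2627 and M2628, and the miRNA-26b+/+ libraries, labelled naive, are M2629, M2630 and M2631. The mutant allele was made in 129/Sv embryonic stem cells with loxP sites around *Mir26b*, the floxed segment was deleted with tamoxifen-activated CreERT2 and the Cre was then bred out. Whether the miRNA-26b+/+ mice were littermates or had received tamoxifen is not given in the sources used here. The question was whether these markers, as a measure of how much adventitia each library holds, differed between the genotypes.

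The adventitia surrounds the smooth muscle of the media and consists of collagen-producing fibroblasts, small vessels, nerves and resident macrophages. Some of its fibroblasts carry the surface proteins Sca-1 (the product of *Ly6a*) and CD34 and are regarded as progenitors, and a part of these cells express *Gli1*, a transcription factor switched on by hedgehog signals. *Pi16*, *Dpt*, *Scara5* and *Clec3b* are widely used to tell fibroblasts of this kind from other stromal cells, whereas *Gsn* and *Serpinf1* are abundant in fibroblasts without being limited to them, and endothelial cells also carry *Ly6a* and *Cd34*.

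As the mice lack both mature products of *Mir26b*, their sequences are shown first, from RefSeq on GRCm38.p6, with the seed (bases 2 to 8), by which a miRNA pairs with its targets, in capitals. The first lies at chr1:74394324-74394344 and the second at chr1:74394360-74394381, both on the forward strand in an intron of *Ctdsp1*.
mmu-miR-26b-5p: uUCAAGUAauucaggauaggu
mmu-miR-26b-3p: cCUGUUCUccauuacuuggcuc

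The longest annotated 3′ UTR of each of the 10 genes was searched for matches to these seeds (for the 5p product TACTTGA, or ACTTGAA with the A opposite base 1, and for the 3p product AGAACAG or GAACAGA, in the sense direction). *Dpt* held 1 match for the 5p product, at chr1:164824166-164824172, and *Cd34* held 1 match for the 3p product, at chr1:194961154-194961160, both on the forward strand of GRCm38. They are shown with 11 bases on either side and the match in capitals, as the only seed matches found in these UTRs.
Dpt: tttcccatggcACTTGAAagtgtattctg
Cd34: gggttaaggggAGAACAGgggtcctgatt

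The other 8 genes held no match of these letters in that UTR. Thus 1 of 10 genes had a match for the 5p product and 1 of 10 for the 3p product, whereas of the 21173 genes with an annotated 3′ UTR 18.9% and 22.1% had one. A match of letters is not evidence of binding, and several of these UTRs are short, from 165 bases for *Gli1* to 2106 bases for *Pi16*.

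Between 25706728 and 33345037 counts per library were assigned to genes. The targeted *Mir26b* gene received 0 counts in 5 libraries and 20 in M2630, too few to check the genotypes, and its host gene *Ctdsp1* averaged 189 ± 11.2 CPM (counts scaled to a common library size) without and 165 ± 15.6 CPM with the miRNA (SD, n = 3 per genotype; log2 fold change 0.20, adjusted p = 0.866 from edgeR). The labels name the samples as aortic endothelial cells, but the libraries have the make-up of whole vessel wall. The smooth muscle genes *Acta2* and *Tagln* had a mean of 23800 and 10635 TPM (a level corrected for gene length and scaled to a common total in each library), against 245 TPM for the endothelial gene *Pecam1* and 1467 TPM for the fibroblast collagen *Col1a1*. In such bulk tissue, fewer cells of a type and less RNA per cell cannot be told apart. That every library had its own mouse is inferred from the study's description of 3 mice per genotype.

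Per length, the 10 genes spanned a wide range of levels. *Gsn* had the highest level, with 3193 ± 591 TPM over the 6 libraries (SD, n = 6), and took between 48.0% and 52.3% of the summed TPM of the 10 genes in each library. *Clec3b* followed with 1072 ± 248 TPM and was above *Dpt* (540.0 ± 156 TPM) in every library. *Dpt* and *Serpinf1* (488 ± 154 TPM) differed by less than their spread, with *Dpt* higher in 5 of 6 libraries. Next came *Ly6a* with 329 ± 35.9, *Pi16* with 273 ± 62.5 and *Dpep1* with 199.8 ± 41.8 TPM, whose ranges overlapped with those of their neighbours in this order, although *Pi16* was above *Dpep1* in all 6 libraries. *Scara5* (118 ± 37.2 TPM) and *Cd34* (114 ± 32.5 TPM) could not be ordered, each being higher in 3 libraries. *Gli1*, which encodes a transcription factor, was 10.1-fold below *Cd34*, with 11.3 ± 3.23 TPM and its range clear of that of every other member.

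**Figure D1:**
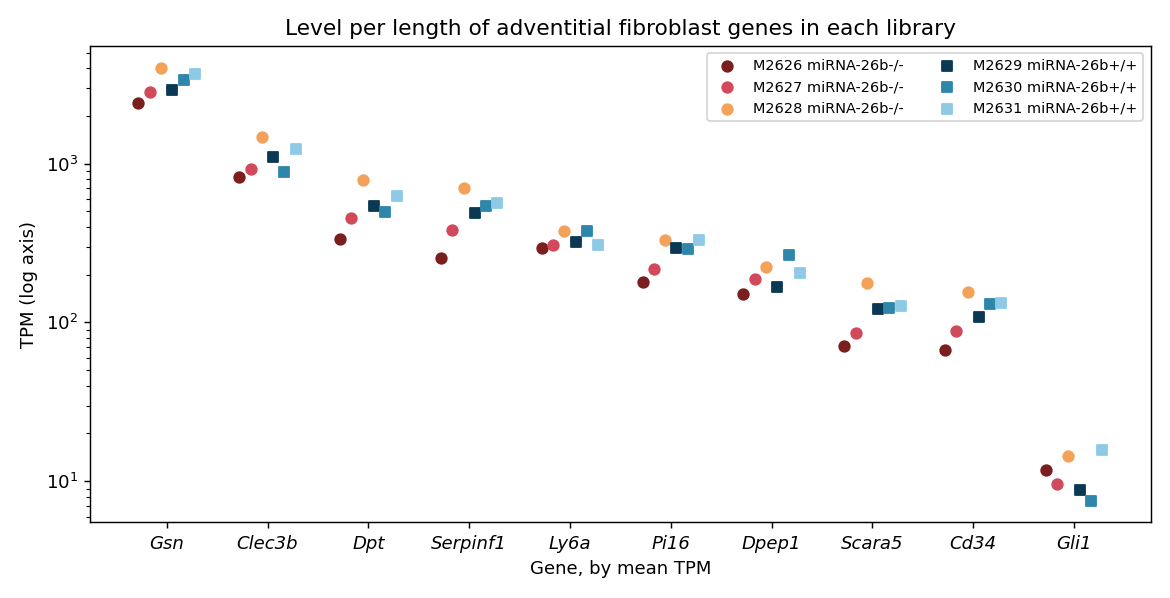
TPM (log axis) of the 10 adventitial fibroblast genes in each of the 6 libraries, ordered by mean; circles are miRNA-26b-/- and squares miRNA-26b+/+ libraries. *Gsn* lies highest and *Gli1* lowest, and for most genes M2626 lies at the bottom and M2628 at or near the top of the 6 points.

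No member passed the test between the genotypes. By the quasi-likelihood test of edgeR, 0 of the 10 genes reached an unadjusted p of 0.05, where 6.47% of all genes tested did (3.40% as higher and 3.07% as lower without the miRNA), and the smallest Benjamini-Hochberg adjusted p-value was 0.817. At an adjusted p-value under 0.05, 0 of 10 passed, against 0.00624% of all genes (1 gene). DESeq2 and limma voom likewise called 0 of 10. Of the 10 genes, 3 had a higher and 7 a lower mean level in miRNA-26b-/- mice, with log2 fold changes from -0.28 to 0.20 and a median of -0.082, beside a median of 0.013 over all genes tested. For all 10 genes the libraries of the 2 genotypes overlapped, and of all genes 11.5% had libraries that did not. In a list of 10 genes, 0 called and 0 without overlap are near the shares of all genes. As each genotype had 3 mice, an exact permutation test, run on each gene alone, cannot give a p-value under 0.1, and it gave 0.4 to 1 for these genes.

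The absence of a call does not show equal levels. The 95% intervals of the fold change (miRNA-26b-/- over miRNA-26b+/+) allowed ratios from 0.64 to 1.05 for *Pi16*, 0.772 to 1.21 for *Gsn*, 0.801 to 1.28 for *Ly6a* and 0.703 to 1.88 for *Gli1*. Changes larger than 2-fold in either direction lay outside the interval of each of the 10 genes, and how much smaller a change each interval still allowed differed from gene to gene.

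For most of the genes the wider spread lay within the miRNA-26b-/- group. The controls varied more for *Ly6a*, *Gli1* and *Dpep1*. Their coefficients of variation were 12.9%, 39.7% and 25.6% in the controls against 7.82%, 17.3% and 13.6% in the miRNA-26b-/- mice. For 7 of the 10 genes (*Pi16*, *Dpt*, *Cd34*, *Scara5*, *Clec3b*, *Gsn* and *Serpinf1*), M2626 had the lowest and M2628 the highest level of all 6 libraries, so that the miRNA-26b-/- mice enclosed the range of the miRNA-26b+/+ mice; of all genes tested, 5.98% had both of these libraries at the ends and 23.2% had such an enclosed range. M2626 was the lowest library for 8 of the 10 genes (20.4% of all genes) and lay below every control for the same 8 (27.0%), *Dpep1* being the eighth by a margin under 1 CPM. M2628 was the highest library for 7 genes (20.0%) and lay above every control for these 7 (28.1%). M2627 lay between M2626 below and M2628 above for 8 genes (18.7%). These orders of libraries were noticed in the data and were not tested. The values of each gene follow, as CPM after TMM normalization.

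Among the progenitor surface markers, *Pi16*, a peptidase inhibitor anchored at the cell surface (ENSMUSG00000024011, chr17:29317680-29330593, forward strand), had 379.7, 436 and 631 CPM in M2626, M2627 and M2628 and 563, 572 and 626 CPM in M2629, M2630 and M2631. The miRNA-26b+/+ libraries lay close together, M2626 and M2627 lay below all of them and M2628 just above. The means were 482 ± 132 and 587 ± 33.7 CPM (SD, n = 3 each), and the log2 fold change, -0.28 with a standard error of 0.168, was the lowest of the 10 genes (adjusted p = 0.817 from edgeR).

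*Cd34*, a sialomucin of progenitor, fibroblast and endothelial surfaces (ENSMUSG00000016494, chr1:194938819-194961279, forward strand), had 163, 205 and 339 CPM in the miRNA-26b-/- and 238, 293 and 290.0 CPM in the miRNA-26b+/+ libraries. Again M2626 and M2627 were below and M2628 above every miRNA-26b+/+ library, a 2.09-fold span among the miRNA-26b-/- mice against 1.23-fold among the controls. Its log2 fold change was -0.21 (95% interval -0.67 to 0.24, adjusted p = 0.928 from edgeR).

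*Ly6a*, which encodes the lipid-anchored stem cell antigen Sca-1 (ENSMUSG00000075602, chr15:74994877-74998031, reverse strand), had 119, 117 and 135 CPM in the miRNA-26b-/- and 115, 139.8 and 110.5 CPM in the miRNA-26b+/+ libraries. It was the steadiest of the 10 genes over the 6 libraries, with a 1.15-fold span among the miRNA-26b-/- mice and a 1.27-fold span among the controls. It did not share the low values of M2626 and M2627. It belongs to a cluster of closely related genes, so its count is uncertain where these share reads.

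Of the secreted and matrix proteins, *Serpinf1*, which encodes pigment epithelium-derived factor, an inhibitor of vessel growth (ENSMUSG00000000753, chr11:75409769-75422701, reverse strand), had 199.8, 286 and 491 CPM in the miRNA-26b-/- and 347, 393 and 400.1 CPM in the miRNA-26b+/+ libraries. This was the largest span of the 10 genes among the miRNA-26b-/- mice, 2.46-fold, against 1.15-fold among the miRNA-26b+/+ mice. The log2 fold change of the means was -0.22 (95% interval -0.72 to 0.28, adjusted p = 0.931 from edgeR).

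*Dpt*, which encodes dermatopontin, a small matrix protein that binds collagen fibrils and decorin (ENSMUSG00000026574, chr1:164796644-164824266, forward strand), had 194, 248 and 407 CPM in the miRNA-26b-/- and 280.1, 263 and 322 CPM in the miRNA-26b+/+ libraries. The means were nearly the same, 283 ± 111 and 288 ± 30.5 CPM (SD, n = 3 each), while M2628 had 2.10 times the level of M2626. *Dpt*, the gene with the 5p match shown above, thus had a log2 fold change of -0.026 in mice without the miRNA (95% interval -0.48 to 0.43). *Dpt* and *Cd34* lie on the same chromosome as *Mir26b*, at a distance of 90.4 and 121 Mb.

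*Clec3b*, which encodes tetranectin, a plasminogen-binding lectin (ENSMUSG00000025784, chr9:123150946-123157432, forward strand), had 272, 291 and 436 CPM in the miRNA-26b-/- and 326, 272 and 366 CPM in the miRNA-26b+/+ libraries. Here M2626 was barely below M2630, M2627 lay within the controls and M2628 above them. *Gsn*, which encodes the actin-severing protein gelsolin in a cytoplasmic and a secreted form (ENSMUSG00000026879, chr2:35256380-35307892, forward strand), had 2528, 2845 and 3782 CPM in the miRNA-26b-/- and 2753, 3283 and 3443 CPM in the miRNA-26b+/+ libraries. M2627 was within the controls, and the span among the miRNA-26b-/- mice was 1.5-fold. The log2 fold changes of *Clec3b* and *Gsn* were 0.048 and -0.050, each with an adjusted p of at least 0.987 from edgeR.

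Of the membrane receptors and enzymes, *Scara5*, a scavenger receptor that takes up ferritin (ENSMUSG00000022032, chr14:65666403-65764826, forward strand), had 146, 166 and 323 CPM in the miRNA-26b-/- libraries and 221, 234 and 233 CPM in the miRNA-26b+/+ libraries. The controls agreed within 1.06-fold, the closest of the 10 genes, while the miRNA-26b-/- mice spanned 2.22-fold, 2 of them below and 1 above. *Dpep1*, a membrane dipeptidase that also cleaves a leukotriene (ENSMUSG00000019278, chr8:123186242-123201812, forward strand), had 125, 148 and 165 CPM in the miRNA-26b-/- and 125, 206 and 152 CPM in the miRNA-26b+/+ libraries. For *Dpep1* the controls varied more than the miRNA-26b-/- mice, with a coefficient of variation of 25.6% against 13.6%. *Gli1* (ENSMUSG00000025407, chr10:127329882-127341974, reverse strand) had 19.6, 15.2 and 21.5 CPM in the miRNA-26b-/- and 13.1, 11.7 and 23.4 CPM in the miRNA-26b+/+ libraries, where M2631 stood 2.0-fold above M2630. The log2 fold change of *Gli1* was 0.20 (95% interval -0.51 to 0.91), the highest and least precise of the 10 genes, and 6.55% of its exon bases overlap exons of *Arhgap9* and *Gm47200*, whose reads were counted for each of these genes.

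**Figure D2:**
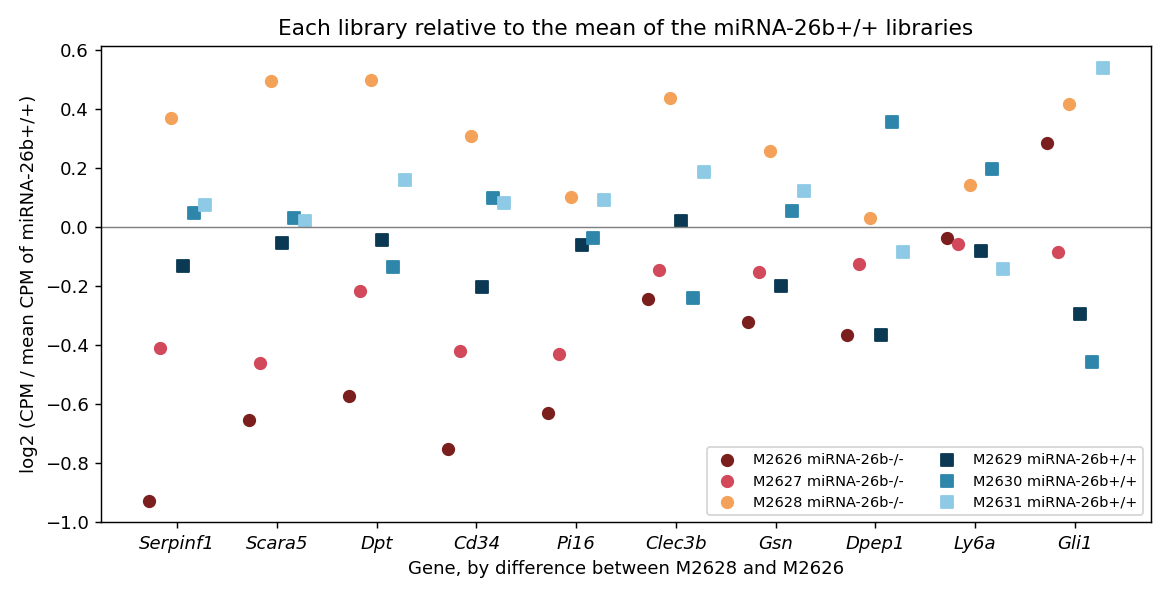
Log2 ratio of each library to the mean of the miRNA-26b+/+ libraries for the 10 genes, ordered by the difference between M2628 and M2626; circles are miRNA-26b-/- and squares miRNA-26b+/+ libraries, and the line marks that mean. For *Serpinf1*, *Scara5*, *Dpt*, *Cd34* and *Pi16*, M2626 and M2627 lie below all 3 squares and M2628 above them.

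M2627 was below every miRNA-26b+/+ library for 5 of the 10 genes, namely *Pi16*, *Dpt*, *Cd34*, *Scara5* and *Serpinf1* (25.9% of all genes tested), and so was M2626 for the same 5 (13.7% of all genes had both). When M2628 was left out, these 5 genes had an unadjusted p-value under 0.05 and a lower level in miRNA-26b-/- mice, against 5.77% of all genes tested that were called lower and 10.8% called in either direction in that fit. Their log2 fold changes were then -0.64 for *Serpinf1*, -0.57 for *Cd34*, -0.55 for *Scara5*, -0.52 for *Pi16* and -0.38 for *Dpt*, that is, from 0.642 to 0.769 of the control level. *Gsn* (-0.23), *Dpep1* (-0.23), *Clec3b* (-0.19), *Ly6a* (-0.046) and *Gli1* (0.086) did not pass. The median over the 10 genes was -0.31, and that over all genes 0.013. At an adjusted p-value under 0.05 none of the 10 passed in that fit either, the smallest being 0.122 for *Serpinf1*, against 0.524% of all genes. In the fits that left out any of the other 5 libraries, 0 of 10 were called. Each library was left out in turn. The fit without M2628 is set out, here and for other lists, after its values were seen. The 5 genes called are those with M2626 and M2627 below every control. Their lower level in that fit thus follows from the order already described and is no separate support for a difference.

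**Figure D3:**
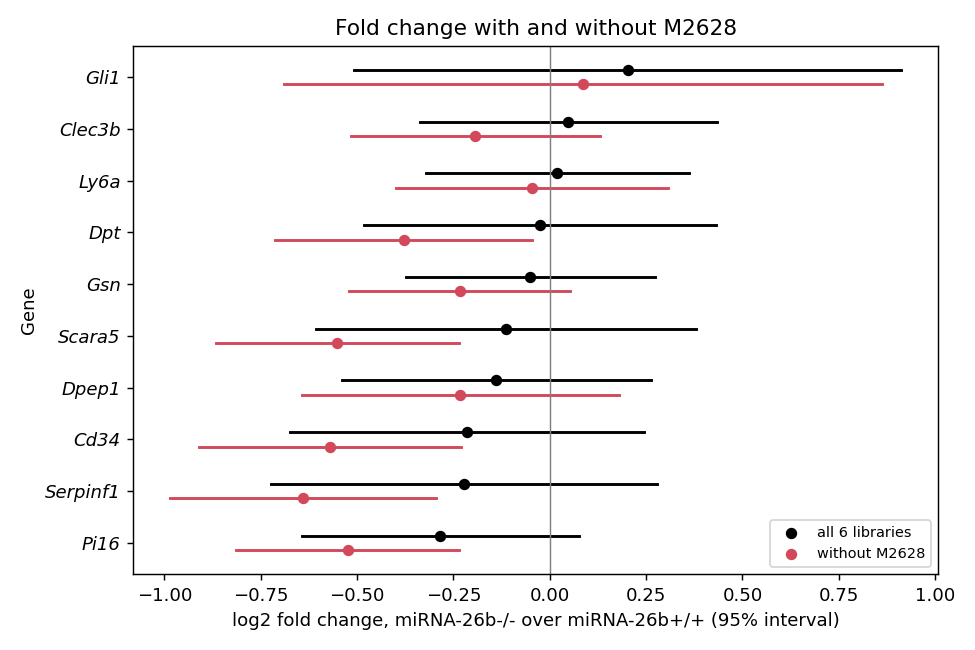
Log2 fold change of each gene, miRNA-26b-/- over miRNA-26b+/+, with its 95% interval from edgeR, over all 6 libraries (black) and without M2628 (red). With all 6 libraries every interval includes 0, and without M2628 the intervals of *Serpinf1*, *Cd34*, *Scara5*, *Pi16* and *Dpt* lie below 0. M2628 was chosen for this figure after its values were seen.

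As a measure of adventitia content, the mean log2 CPM of the 10 genes was 7.59, 7.76 and 8.32 in M2626, M2627 and M2628, and 7.87, 8.0 and 8.12 in M2629, M2630 and M2631. The genotype means were 7.89 ± 0.38 and 8.0 ± 0.12 (SD, n = 3 each), a difference of -0.11 that is smaller than the spread among miRNA-26b-/- mice. M2628 was 0.73 above M2626, or 1.66-fold, both being miRNA-26b-/-. Together the 10 genes made up 0.458%, 0.549% and 0.826% of all TPM in the miRNA-26b-/- and 0.605%, 0.647% and 0.718% in the miRNA-26b+/+ libraries. Relative to the mean log2 CPM of 8 smooth muscle genes, the 10 genes stood at -4.24 in M2626 and -3.87 in M2627, at -3.18 in M2628, and between -3.79 and -3.68 in the controls. By each of these measures the 3 miRNA-26b+/+ libraries lay within a narrower range than the miRNA-26b-/- libraries, and inside it. *Gsn* alone held between 48.0% and 52.3% of the summed TPM of the 10 genes in each library. Without *Gsn*, the genotype means of log2 CPM differed by -0.112, and without *Ly6a* and *Cd34* by -0.102, against -0.107 with all 10 genes.

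Other fibroblast genes had a like order of libraries. In a list of 24 other fibroblast and adventitial stroma genes, all tested, M2626 was lowest for 16, M2628 highest for 17 and both held for 13 genes. The mean log2 CPM of this list was 7.18, 7.31 and 7.97 in the miRNA-26b-/- and 7.53, 7.33 and 7.63 in the miRNA-26b+/+ libraries, so M2626 was below all controls, M2628 above, and M2627 just below M2630. At the same unadjusted threshold 1 of the 24 genes was called, as higher without the miRNA, and 0 as lower. This is near the share of all genes tested, of which 6.47% were called. The median log2 fold change was 0.022. The gene called was *Igfbp6*, which encodes a binding protein of insulin-like growth factor 2. It had 92.5, 93.1 and 167 CPM in the miRNA-26b-/- and 80.8, 84.5 and 77.9 CPM in the miRNA-26b+/+ libraries, which did not overlap. The log2 fold change of *Igfbp6* was 0.53 with a standard error of 0.218 (adjusted p = 0.736 from edgeR), and it was 0.20 and not called without M2628 (adjusted p = 0.743). The call of *Igfbp6* was also lost without M2629 and without M2631, with log2 fold changes of 0.53 and 0.50. The most abundant genes of the list were the collagens *Col1a1* (1467 TPM) and *Col3a1* (1418 TPM), with log2 fold changes of 0.40 and 0.24 that did not pass. Without M2628, 8 of the 24 genes were called lower and 0 higher, where 5.77% of all genes were called lower. Among them were *Fbln2* with a log2 fold change of -1.22 (adjusted p = 0.000838 from edgeR) and *Ackr3* with -1.13 (adjusted p = 0.0695).

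Markers of other cell types moved with these libraries as well, and their part in the result was not tested. Of all genes tested 6.47% were called, and without M2628 10.8% were called, 5.77% as lower. For smooth muscle the order was not shared: M2626 was lowest for 0 and M2628 highest for 0 of the 8 genes, and the mean log2 CPM ran from 11.50 in M2628 to 11.91 in M2631, with 0 of 8 called. For 8 endothelial genes the mean log2 CPM was 5.63 and 5.66 in M2626 and M2627, 6.69 in M2628 and between 6.54 and 6.81 in the controls, and their summed level was 277, 287 and 872 TPM against 616, 777 and 727 TPM. *Tek*, the angiopoietin receptor, had 22.8, 22.1 and 116 CPM in the miRNA-26b-/- and 89.0, 129.6 and 101 CPM in the miRNA-26b+/+ libraries, and was the 1 endothelial gene called (log2 fold change -1.0, adjusted p = 0.745 from edgeR); *Pecam1* (245 TPM) and *Vwf* (79.4 TPM) were the most abundant. The 8 macrophage genes, led by *C1qa* and *C1qb* (194 TPM each), had summed levels of 325, 376 and 1002 TPM in the miRNA-26b-/- and 549.8, 612 and 598 TPM in the miRNA-26b+/+ libraries. M2628 was the highest library for all 8 of them and M2626 the lowest for 5, and 0 of 8 were called. The mean log2 CPM of the adventitial, the endothelial and the macrophage list was thus lower in both M2626 and M2627 than in every control, and that of the smooth muscle list was within the controls. Without M2628, 5 of 8 endothelial and 6 of 8 macrophage genes were called lower, and 0 of 8 smooth muscle genes.

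Fat and nerve had other orders. Of all genes tested, 3.40% were called higher and 3.07% lower. The 8 adipocyte genes, led by *Fabp4* (359.6 TPM) and *Adipoq* (246 TPM), summed to 809, 1825 and 671 TPM in the miRNA-26b-/- and 981, 1394 and 504 TPM in the miRNA-26b+/+ libraries, and the 6 brown adipocyte genes, led by *Cox8b* (226 TPM) and *Cidea* (219.6 TPM), to 532, 1276 and 411 against 682, 942 and 299.8 TPM. M2627 and M2630 were highest for both lists, and 0 genes of either were called. All 6 Schwann cell genes had higher means in miRNA-26b-/- mice and 5 were called higher, among them *Pmp22*, *Cdh19* and *Sox10* (log2 fold changes 0.47, 2.01 and 1.54); their summed level was 559.6, 582 and 439 TPM against 301, 311 and 369 TPM. Sympathetic neuron genes, led by *Uchl1* (171 TPM) and *Dbh* (19.8 TPM), summed to 489 TPM in M2627 and to between 108 and 241 TPM in the other libraries, and *Th* and *Tubb3* were called higher, although *Th* had 37.1 CPM in M2627, 3.57 CPM in M2630 and 0 counts in the other libraries. Cardiac and skeletal muscle genes, led by *Myl7* (57.7 TPM) and *Myh6* (24.5 TPM), summed to 375 TPM in M2627, 223 TPM in M2630 and at most 55.9 TPM elsewhere. *Acta1*, *Tnnt3* and *Mylpf* were called higher, with other orders of libraries. In M2626, M2627 and M2628 *Mylpf* had 91, 113 and 174 counts, against 0 in every control. *Tnnt3* had 115, 226 and 54 counts against 0, 0 and 2, and *Acta1* had 245, 849 and 9 against 100, 18 and 53. Mesothelial genes, led by *Upk3b* (7.27 TPM) and *Krt19* (4.13 TPM), summed to at most 25.9 TPM in any library, with *Lrrn4* called lower. The 3 tested genes of the lymphocyte list summed to at most 4.23 TPM, with 0 called. Of the lymphocyte list, *Ptprc* (1.37 TPM) and *Cd79a* (0.972 TPM) had the highest levels, and *Cd3e* had 0 counts in all libraries. *Ptprc* encodes CD45, by which the study marked total leukocytes, so its level is not one of lymphocytes alone.

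**Figure D4:**
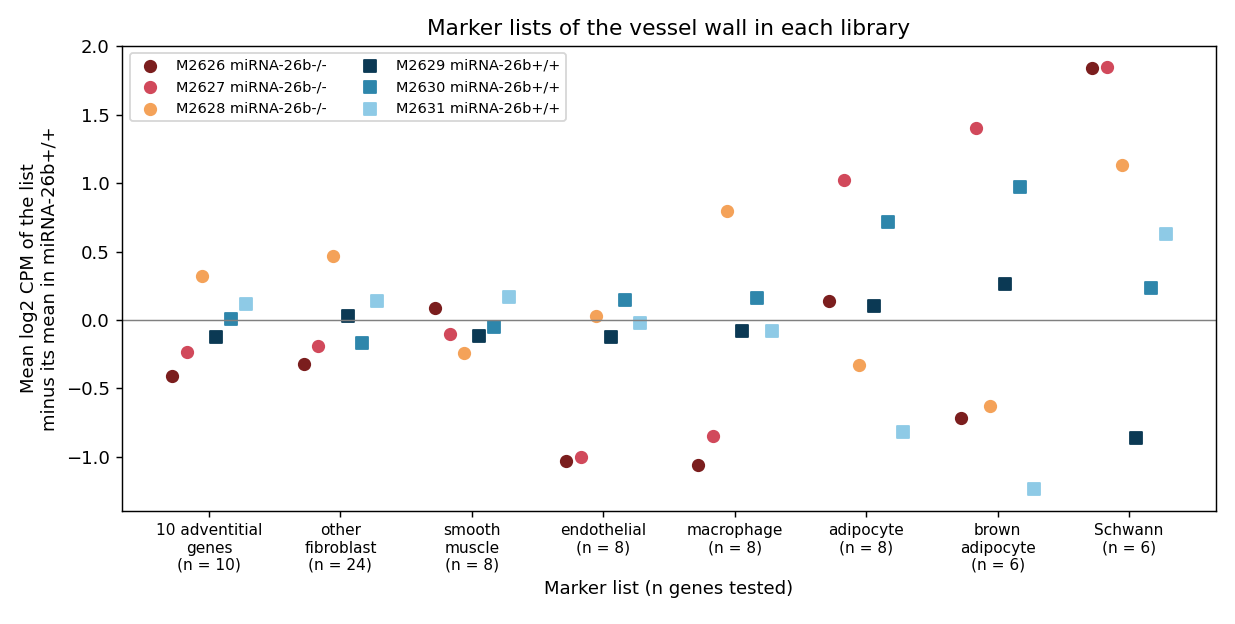
Mean log2 CPM of each marker list in each library, minus the mean of the miRNA-26b+/+ libraries; circles are miRNA-26b-/- and squares miRNA-26b+/+ libraries, and n is the number of genes tested. The 10 adventitial genes, the other fibroblast genes and the macrophage genes have M2626 at the bottom and M2628 at the top, the endothelial genes have M2626 and M2627 near -1, and the smooth muscle genes have M2628 at the bottom.

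*Gli1* is both an effector and a transcriptional target of the hedgehog pathway, in which a secreted ligand relieves the block that the receptor *Ptch1* places on *Smo*, so that GLI factors become active. Of 18 other pathway genes 17 were tested, with 1 called higher without the miRNA and 0 called lower, where 6.47% of all genes tested were called. A list of 17 genes with 1 call is thus near the share of all genes. The median log2 fold change was -0.12. Among the ligands, *Shh* had 0 counts in all 6 libraries (3 counts would be 0.117 CPM in the smallest library). *Dhh*, the ligand made by Schwann and endothelial cells, had 4.06, 7.30 and 40.3 CPM in the miRNA-26b-/- and 18.6, 19.8 and 24.5 CPM in the miRNA-26b+/+ libraries. It was low in M2626 and M2627 and high in M2628, as the 5 adventitial genes above were, with a log2 fold change of -0.30 (adjusted p = 0.965 from edgeR). *Ihh*, another ligand, had 9.93, 14.2 and 2.34 CPM in the miRNA-26b-/- and 20.2, 5.83 and 7.97 CPM in the miRNA-26b+/+ libraries. For *Ihh*, unlike *Dhh*, M2628 was the lowest library, and the log2 fold change was -0.34 (adjusted p = 0.959 from edgeR).

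The gene called was *Ptch1*, the hedgehog receptor and itself a target of GLI factors (ENSMUSG00000021466, chr13:63508328-63573598, reverse strand). *Ptch1* had 53.3, 54.0 and 50.2 CPM in the miRNA-26b-/- and 31.3, 38.1 and 29.7 CPM in the miRNA-26b+/+ libraries. All 3 miRNA-26b-/- libraries were above all 3 controls, and 0 of the 10 adventitial genes had genotypes apart in this way. The miRNA-26b-/- libraries also lay within a narrow range, unlike for the 7 adventitial genes with M2626 lowest and M2628 highest. The log2 fold change was 0.67 (95% interval 0.24 to 1.11, unadjusted p = 0.00483 and adjusted p = 0.734 from edgeR), so it did not pass after adjustment, and it stayed between 0.59 and 0.79 over the 15 alternative fits, with an unadjusted p-value of at most 0.0226 and an adjusted p-value of at least 0.211. *Gli1* itself overlapped between the genotypes, and so the pathway's transcription factor and its receptor, both targets of the pathway, did not have the same order of libraries. The signal transducer *Smo* had a log2 fold change of -0.011, and the co-receptor *Gas1*, the most abundant gene of the list with 173 TPM, had 0.060. *Gpc3*, a glypican that binds hedgehog ligands (107 TPM), had -0.12. Without M2628, 4 of the 17 genes were called, where 10.8% of all genes were. These were *Ptch1* as higher and *Dhh* (log2 fold change -1.84), *Hhip* (-0.64) and *Gpc3* (-0.51) as lower, all with an adjusted p of at least 0.0604 from edgeR.

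The longest 3′ UTR of *Ptch1*, of 9012 bases and examined after its values were seen, held no match for the 5p product and 2 for the 3p product, both on the reverse strand of GRCm38, at chr13:63516792-63516798 and chr13:63508877-63508883. Of all genes with an annotated 3′ UTR, whatever its length, 22.1% had a match for the 3p product. A longer UTR holds more such matches by its length alone, and the longest among the 10 members had 2106 bases. No share was computed for UTRs as long as that of *Ptch1*, so its 2 matches cannot be judged, and a match of letters is not evidence of binding. They are shown in the same way, with the match in capitals.
Ptch1, first match: tcccatagtagAGAACAGctttgagttgc
Ptch1, second match: gttttacttttGAACAGAagttttatttg

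Across the 9758 other genes with a mean of at least 10 CPM, the profile over the 6 libraries that lay closest to the mean of the 10 genes was that of *Serping1*, which encodes the inhibitor of complement C1. Its root mean square distance was 0.039 on the log2 scale, and it had 481, 556 and 772 CPM in the miRNA-26b-/- and 586, 670.3 and 675 CPM in the miRNA-26b+/+ libraries. *Ctsh*, a lysosomal cysteine protease (0.043), *Pdk3*, a kinase of pyruvate dehydrogenase (0.047), *Tut7*, an RNA uridylyltransferase (0.053), and *Ltbp4*, a matrix protein that binds latent TGF-beta (0.053), came next. Of the 10 genes themselves, *Gsn* was the closest to their mean (0.064) and *Gli1* the farthest (0.374), with *Dpep1* (0.227) and *Ly6a* (0.219) between. With 6 libraries, of which the 2 at the ends set most of the profile, closeness of this kind is a description only.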

How the data were processed

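The authors aligned reads of each library with STAR to GRCm38 and used featureCounts 1.6.4, grouping exons by gene name, to count them, regardless of strand and once for every gene that a read overlapped, and they deposited raw counts, without normalization and without pooling. The annotation in the header of the count table is GENCODE release M21, and the methods name M23. A second table deposited by the authors holds, for 16340 genes, the same counts (0 values differ), log2 CPM per library, used here in an alternative fit, and the authors' own fold changes and p-values, which were not used. Gene coordinates and 3′ UTRs are from GENCODE release M21, and miRNA sequences from RefSeq.

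Genes were kept when their summed count reached 2 and 2 or more libraries exceeded 1 CPM. After TMM normalization, genotypes were compared by quasi-likelihood in edgeR 4.0.16 (R 4.3.3; prior count 0.125 for fold changes), with all 6 libraries in the fit and Benjamini-Hochberg adjustment over all 16017 genes tested. An unadjusted p-value under 0.05 is called here, since few genes pass after adjustment. CPM values of single genes use the counts of the tested genes and the TMM factors; mean log2 CPM over a list has a prior count of 2; TPM were computed from the counts and the deposited gene lengths. Depth ran from 25706728 to 33345037 counts per library. Intervals are 95% intervals of the fit. Alternatives were the normalization, the test (DESeq2 1.42.0, limma 3.58.1), the filter and each library left out. The procedure was tested on simulated data.

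The members and lists were chosen with earlier results of these data known. Named are the 10 members, the targeted locus, the called and the 2 most abundant genes of each other list, and the 5 genes of most similar profile; *Fbln2*, *Ackr3*, *Cd3e*, and all hedgehog genes except *Ptch1*, *Gas1* and *Gpc3* were named after their values were seen. Some genes that this rule would name are not reported here.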

Additional observations from a re-analysis of the deposited data

How the results depend on the processing

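Over 150 alternative fits of the 10 genes, 131 kept the direction and the side of the unadjusted threshold, 14 turned the direction of a gene that was not called, 5 (those without M2628) brought a gene past the threshold, and 0 gave an adjusted p-value under 0.05. When single libraries were left out, the number of members called ran from 0 to 5, of all genes from 686 (without M2631) to 1692 (without M2628), of the other fibroblast genes from 1 to 8 and of the hedgehog genes from 1 to 4, and the difference of the mean log2 CPM of the members ran from -0.32 to 0.040, the cause not being tested. In the same fits the log2 fold change ran from -0.38 to 0.18 for *Dpt*, -0.055 to 0.13 for *Ly6a*, -0.55 to 0.087 for *Scara5*, -0.19 to 0.17 for *Clec3b*, -0.23 to 0.065 for *Gsn*, -0.64 to 0.026 for *Serpinf1* and -0.29 to 0.083 for *Dpep1*. It kept its direction for *Pi16* (-0.52 to -0.14), *Cd34* (-0.57 to -0.015) and *Gli1* (0.035 to 0.57), with the values nearest 0 without M2626 for *Pi16* and *Cd34* and without M2630 for *Gli1*, and those farthest from 0 without M2628 for *Pi16* and *Cd34* and without M2631 for *Gli1*. With library size in place of TMM, limma voom and limma trend on the deposited log2 CPM, 2 other fibroblast genes were called, against 1; the cause was not tested. The other settings left the number of members called at 0. No paired analysis was possible because the labels number the mice consecutively and give no pairs across genotypes. With 3 mice per genotype, differences within the 95% intervals given cannot be seen.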
